A study of Mus musculus with 4 samples.

Results

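A set of 33 genes that mark macrophages and other myeloid cells was followed in the RNA of gonadal white fat (gWAT), which lies along the gonads. Members were picked by gene name, with earlier results of these data known, and all 33 were among the 45706 genes of the table. All 33 also averaged 1 TPM or more across the 4 mice, as did 13788 genes in all. They comprise surface receptors by which macrophages are recognized, Fc gamma receptors and their signalling adaptors, the 3 chains of complement C1q, subunits of the phagocyte oxidase, sensors of bacterial products, lysosomal proteins, proteins of leukocytes in general and the transcription factor gene Spi1.

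Macrophages are phagocytes that live in every fat pad. They clear dead adipocytes, store and break down lipid, and in obesity gather in rings, called crown-like structures, around dying adipocytes. Their survival depends on the growth factor receptor encoded by Csf1r, and their identity on PU.1, the protein encoded by Spi1, which binds purine-rich DNA containing GAGGAA and acts at many genes of this set. Most of the 33 genes are also read in monocytes, and several in neutrophils, dendritic cells, B cells or T cells.

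C57B6/N mice ate a high-fat diet (HFD) for 2 months. In the HFD+Cana group (2 mice), canagliflozin, an inhibitor of the kidney glucose transporter SGLT2, was mixed into that diet at 0.03% by weight for 7 days, and the HFD group (2 mice) ate the diet without it. Both groups therefore share the high-fat diet and differ in the drug. The study states that these experiments used male mice, and the sources used here do not describe pooling of animals. The question asked of the set was whether macrophage RNA in gWAT differed after 7 days of canagliflozin. Polyadenylated RNA was sequenced with a stranded kit as paired reads of 150 bases. Values are TPM (transcripts per 1000000), in which estimated reads are divided by transcript length and each sample adds up to 1000000, so levels can be set beside each other between genes. Read numbers cannot be recovered from TPM, so depth is unknown and no counting error can be given.

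Adipocyte genes identified the tissue in all 4 samples: Adipoq, the gene of adiponectin, stood at 3926 and 4551 TPM in HFD+Cana replicates 1 and 2, against 3645 and 4124 TPM in HFD replicates 1 and 2. The 4 samples listed between 19884 and 21129 genes above 0 TPM. RNA of liver marker genes was higher in both HFD+Cana samples, where 5 hepatocyte markers summed to 91.6 and 122 TPM, against 3.63 and 6.62 TPM in HFD. Whether it came from liver cells was not tested. Mesothelial markers (7 genes) likewise summed to 155 and 263 TPM in HFD+Cana and 48.7 and 37.6 TPM in HFD. Hemoglobin and other red cell genes summed to 14391 and 6673 TPM in HFD+Cana and 1756 and 5940.1 TPM in HFD. Every TPM value is a share of the whole, and the part of these other tissues in the results was not tested.

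Promoter sequences were available for 25 of the 33 members in the RefSeq table of build GRCm38.p6, which gives 250 bases before and 50 after each transcription start, 30 promoters for these 25 genes. The PU.1 motif GAGGAAGT, searched on both strands, was in 3 of the 30, and in 1052 of all 32851 promoters (3.2%). Its core GAGGAA, which is part of the longer motif, was in 15 of the 30, belonging to 14 genes, and in 9289 of all promoters (28.3%). The 3 promoters with the longer motif belong to a complement chain, a lysosomal protease and a leukocyte membrane protein, and are shown because they hold the motif of the factor that another member, Spi1, encodes. Capitals mark the motif, which reads ACTTCCTC here because it lies on the strand opposite to the gene. It begins 195 bases before the RefSeq start of C1qc (chr4:136892865-136893164, minus strand), 2 bases before the start of Ctss (chr3:95526536-95526835, plus strand) and 6 bases after the start of Cd53 (chr3:106790100-106790399, minus strand). GENCODE M21 starts C1qc at 136893065, between the motif and the RefSeq start, so the distance in C1qc depends on the annotation. A match in these letters is a description and does not show that PU.1 was bound.
C1qc: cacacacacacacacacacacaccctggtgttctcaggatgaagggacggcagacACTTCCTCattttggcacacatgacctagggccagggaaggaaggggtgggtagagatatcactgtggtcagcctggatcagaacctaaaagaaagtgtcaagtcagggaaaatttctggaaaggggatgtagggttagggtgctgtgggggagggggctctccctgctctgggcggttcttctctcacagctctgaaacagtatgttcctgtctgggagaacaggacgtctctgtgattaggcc
Ctss: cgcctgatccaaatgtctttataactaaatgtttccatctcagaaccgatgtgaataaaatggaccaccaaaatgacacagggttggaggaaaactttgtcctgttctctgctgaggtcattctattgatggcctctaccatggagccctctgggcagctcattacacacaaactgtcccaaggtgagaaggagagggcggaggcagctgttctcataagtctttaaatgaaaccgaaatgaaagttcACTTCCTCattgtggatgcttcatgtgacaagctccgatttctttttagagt
Cd53: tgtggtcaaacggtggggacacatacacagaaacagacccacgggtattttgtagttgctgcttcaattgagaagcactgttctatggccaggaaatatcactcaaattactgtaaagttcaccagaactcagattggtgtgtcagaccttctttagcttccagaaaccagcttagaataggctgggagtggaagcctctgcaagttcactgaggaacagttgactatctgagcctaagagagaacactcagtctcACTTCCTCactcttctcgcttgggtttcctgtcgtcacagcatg

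None of the 33 genes differed between HFD+Cana and HFD in limma on log2(TPM + 1) with Benjamini-Hochberg adjustment over all genes tested. Adjusted p ran between 0.524 for Cd14 and 0.999 for Csf1r. Over all 13788 genes, 6 (0.0435%) passed as higher in HFD+Cana and 0 (0.0%) as lower, so hardly any gene passed at all. At an unadjusted p under 0.05 the count was 0 of 33 in each direction, where 5.32% of all genes were higher and 5.45% lower. The log2 fold change was above 0 in 18 members and below 0 in 15, a split close to that of all genes (53.8% and 46.2%). Its median was 0.0065 over the 33 members and 0.0189 over all genes tested.

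What the members shared was the order of the mice. In HFD+Cana, replicate 1 stood above replicate 2 in 33 of 33 genes (55.9% of all genes tested), and in HFD replicate 1 stood above replicate 2 in 32 of 33 (54.7%). Both held in 32 of 33 genes (36.4%). Together the 33 genes summed to 8161 and 4684 TPM in HFD+Cana replicates 1 and 2, against 6959 and 4911 TPM in HFD replicates 1 and 2, which is 0.816% and 0.468% of all TPM in HFD+Cana and 0.696% and 0.491% in HFD. Both HFD sums thus lay between the HFD+Cana sums. In bulk tissue, fewer macrophages and less of these RNAs per macrophage cannot be told apart. With 2 mice per group, p-values reflect only the spread between these mice, and the smallest two-sided p that an exact permutation test of 2 against 2 allows is 0.333.

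**Figure D1:**
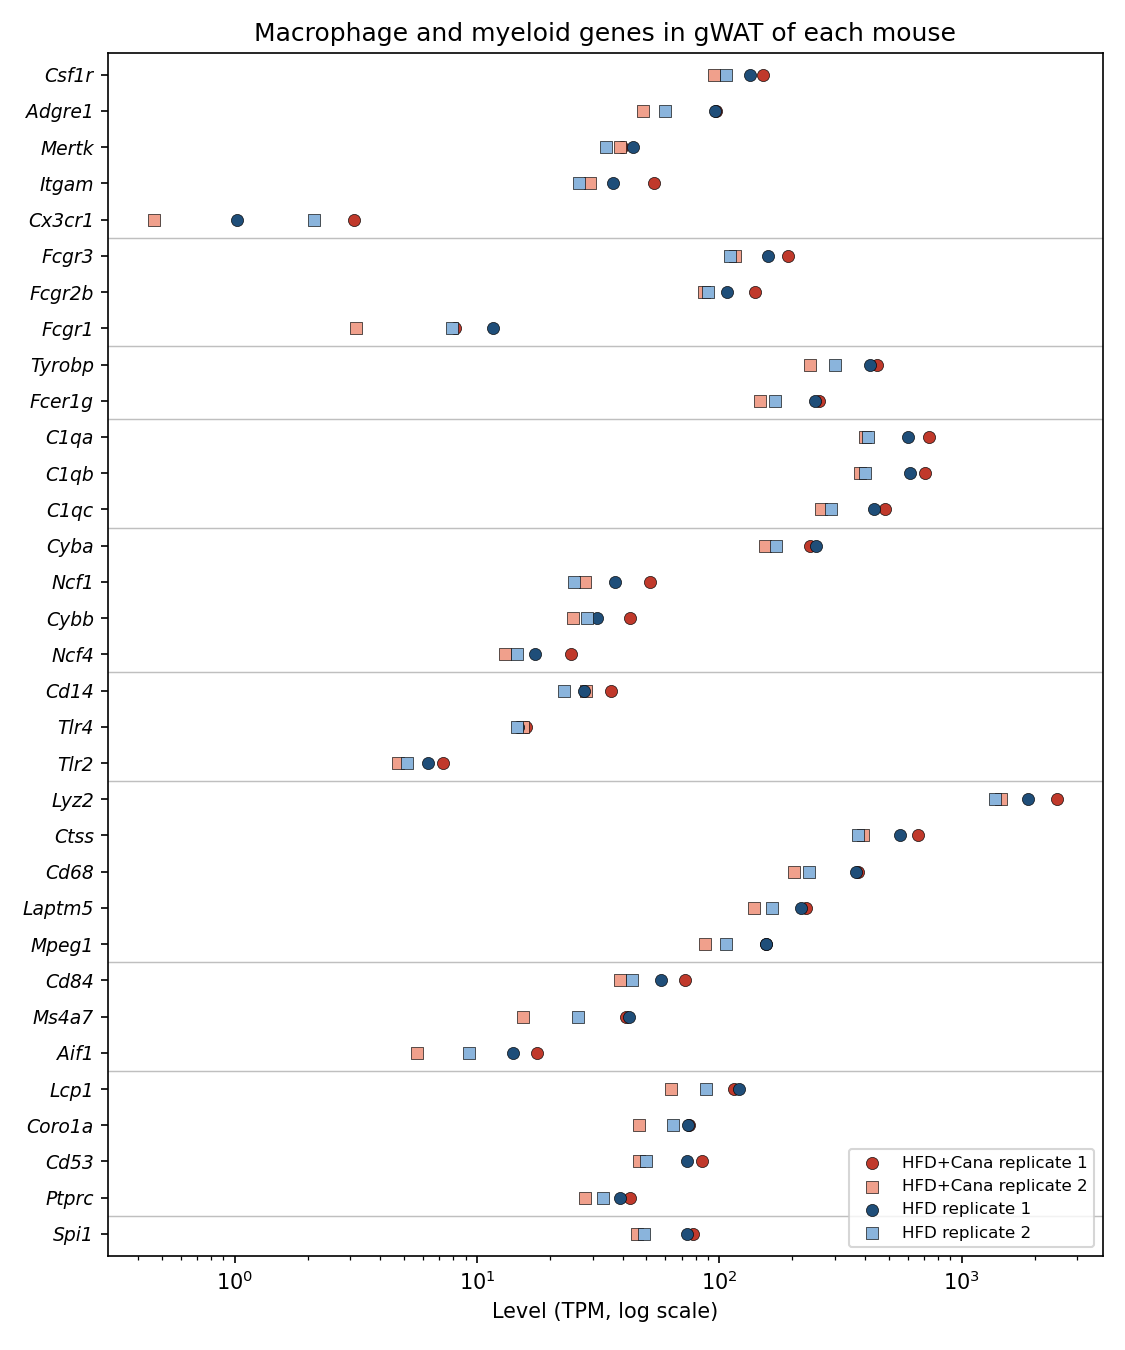
Level of each of the 33 genes in gWAT of each mouse, in TPM on a logarithmic axis, with genes grouped by role and 1 point per mouse, no error bars. The dark circles (replicate 1 of HFD+Cana in red and of HFD in blue) lie to the right of the pale squares (replicate 2) in nearly every gene, and Cx3cr1 is the gene in which the HFD pair is reversed; some points lie on top of each other.

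Of the receptors by which macrophages are recognized, Csf1r and Adgre1 had the same mouse order and group means that lay close together. Csf1r, the receptor of the growth factors CSF1 and IL-34 (chromosome 18, 61100598 to 61132149, GRCm38), was at 151 and 95.5 TPM in HFD+Cana, against 134 and 107 TPM in HFD. Its means were 123 ± 39.2 TPM in HFD+Cana and 121 ± 18.8 TPM in HFD (SD, n = 2 each). Adgre1 (chromosome 17, 57358691 to 57483527), which encodes the antigen F4/80 that is used to stain mouse macrophages, was at 96.6 and 48.3 TPM in HFD+Cana, against 95.7 and 59.7 TPM in HFD. The highest HFD+Cana and HFD mice were nearly level in Adgre1, while the HFD+Cana mouse of replicate 2 was the lowest of the 4. The log2 fold change of Adgre1 was -0.14 (standard error 0.40, 95% interval -1.19 to 0.90, adjusted p = 0.918 in limma).

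Itgam (chromosome 7, 128062640 to 128118491) encodes CD11b, the integrin chain by which, together with CD45, the study defined macrophages in flow cytometry. With that definition the study reported that macrophages of gWAT differed between HFD and HFD+Cana. It also reported fewer crown-like structures after canagliflozin. Both were measures of cells or tissue, not RNA, in more mice than were sequenced. Itgam RNA was at 53.6 and 29.3 TPM in HFD+Cana, against 36.5 and 26.3 TPM in HFD. The groups overlapped, since the HFD mouse of replicate 1 lay between the HFD+Cana mice. Itgam had the largest log2 fold change above 0 of the 33 genes, 0.35 (standard error 0.33, 95% interval -0.51 to 1.2), and did not pass (adjusted p = 0.735 in limma). Ptprc (chromosome 1, 138062861 to 138175708), which encodes CD45, was at 42.9 and 28 TPM in HFD+Cana, against 38.8 and 33.3 TPM in HFD. Both HFD mice lay between the HFD+Cana mice, and the log2 fold change was -0.05 (standard error 0.22, adjusted p = 0.951 in limma).

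Mertk, the receptor kinase through which macrophages take up apoptotic cells, had the smallest gap between the HFD+Cana mice. It was at 39.7 and 39.1 TPM in HFD+Cana, against 44.0 and 34.1 TPM in HFD. The HFD+Cana mice were level and lay between the HFD mice, whereas 30 of the 33 members differed by at least 1.5 times between the HFD+Cana mice (7.87% of all genes tested). Cx3cr1, the receptor of fractalkine, was the lowest gene of the set, at 3.1 and 0.463 TPM in HFD+Cana, against 1.02 and 2.12 TPM in HFD. It was the exception to the mouse order in HFD and had the widest interval of the set (log2 fold change -0.03, 95% interval -1.50 to 1.44).

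The Fc gamma receptors bind antibody-coated particles. Fcgr3, an activating receptor of low affinity, was at 192 and 116 TPM in HFD+Cana, against 159 and 111 TPM in HFD. Fcgr2b, the inhibitory receptor, was at 140.4 and 86.2 TPM in HFD+Cana, against 108 and 90.3 TPM in HFD. Both had overlapping groups and log2 fold changes of 0.17 (standard error 0.30) and 0.15 (standard error 0.26). Fcgr1 (chromosome 3, 96282909 to 96293969), the receptor of high affinity, was at 8.16 and 3.18 TPM in HFD+Cana, against 11.7 and 7.87 TPM in HFD. Here the HFD mouse of replicate 1 was highest, and the HFD+Cana mouse of replicate 1 exceeded the lower HFD mouse by a small margin. Fcgr1 had the largest log2 fold change below 0 of the set, -0.78 (standard error 0.42, 95% interval -1.89 to 0.33, adjusted p = 0.563 in limma). The 3 receptors are related in sequence, and how reads common to them were divided rests on the estimate by Salmon.

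Tyrobp and Fcer1g encode small membrane adaptors that carry the immunoreceptor activation motif (ITAM) and pass on signals of Fc and other myeloid receptors. Tyrobp was at 448 and 237 TPM in HFD+Cana, against 418 and 300.2 TPM in HFD, and Fcer1g at 259 and 147 TPM in HFD+Cana, against 248 and 170.5 TPM in HFD. Both followed the most common order of the set, with the HFD mice inside the HFD+Cana range, and their log2 fold changes were -0.12 (standard error 0.35) and -0.08 (standard error 0.33). The ratio of Tyrobp to Fcer1g was 1.73 and 1.62 in HFD+Cana and 1.68 and 1.76 in HFD, so the adaptors kept nearly the same proportion in every mouse while their levels moved.

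The C1q chains form the recognition part of the first complement component, which in tissue is made mainly by macrophages. Their genes lie side by side on the minus strand of chromosome 4, C1qb at 136880129 to 136886187, C1qc at 136889804 to 136893065 and C1qa at 136895917 to 136898803. C1qa was at 733 and 399 TPM in HFD+Cana, against 603 and 410.1 TPM in HFD. C1qb was at 707 and 381 TPM in HFD+Cana, against 615 and 401 TPM in HFD, and C1qc at 483 and 262 TPM in HFD+Cana, against 435 and 288 TPM in HFD. All 3 had the same order, HFD+Cana replicate 1, HFD replicate 1, HFD replicate 2, HFD+Cana replicate 2. Their log2 fold changes were 0.12, 0.06 and 0.01, each with a standard error between 0.35 and 0.37 and an adjusted p of at least 0.923 in limma. The ratio of C1qa to C1qc was 1.52 and 1.53 in HFD+Cana and 1.38 and 1.43 in HFD, a difference of proportion that was small beside the difference of level between mice.

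The phagocyte oxidase makes superoxide. Its membrane part is built from the products of Cybb, the catalytic chain, and Cyba, and its cytosolic part includes those of Ncf1 and Ncf4. Ncf1 was at 51.9 and 28 TPM in HFD+Cana, against 37.3 and 25.2 TPM in HFD (log2 fold change 0.31, standard error 0.35), and Cybb at 43.0 and 25 TPM in HFD+Cana, against 31.2 and 28.5 TPM in HFD (log2 fold change 0.13, standard error 0.26). Ncf4 was at 24.4 and 13 TPM in HFD+Cana, against 17.4 and 14.7 TPM in HFD (log2 fold change 0.15, standard error 0.30). In these 3 genes the HFD+Cana mouse of replicate 1 stood clear of the other mice. Cyba, the most abundant of the 4, was at 238 and 155 TPM in HFD+Cana, against 252 and 172 TPM in HFD, with the HFD mouse of replicate 1 highest and a log2 fold change of -0.12 (standard error 0.28). None of the 4 passed, and their adjusted p lay between 0.784 and 0.904 in limma.

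Cd14 and Tlr4 were the only members in which both HFD+Cana mice stood above both HFD mice, 2 of 33 (6.06%) where 24.3% of all genes did so, and no member had both HFD+Cana mice below both HFD mice, where 19.8% of all genes did. Cd14 (chromosome 18, 36725067 to 36726798), the surface co-receptor that hands endotoxin to TLR4, was at 35.9 and 28.3 TPM in HFD+Cana, against 27.6 and 22.8 TPM in HFD. The lower HFD+Cana mouse was barely above the higher HFD mouse. The log2 fold change of Cd14 was 0.33 (standard error 0.16, 95% interval -0.09 to 0.75), and its unadjusted p = 0.0945 in limma was the smallest of the set. Tlr4 (chromosome 4, 66827584 to 66930284), the endotoxin receptor, was at 16.0 and 15.5 TPM in HFD+Cana, against 14.8 and 14.6 TPM in HFD. Its mice were nearly level within each group, the standard error of 0.09 was the smallest of the set, and the log2 fold change of 0.10 had a 95% interval of -0.13 to 0.32. Tlr2, which senses bacterial lipopeptides, was at 7.23 and 4.72 TPM in HFD+Cana, against 6.28 and 5.15 TPM in HFD, with the HFD mice inside the HFD+Cana range.

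Lysosomal genes held the most abundant RNA of the set. Lyz2 (chromosome 10, 117277331 to 117282321), which encodes the lysozyme of macrophages and neutrophils, was at 2484 and 1459.8 TPM in HFD+Cana, against 1873 and 1376 TPM in HFD (log2 fold change 0.25, standard error 0.31, adjusted p = 0.808 in limma). Lyz2 has a closely similar neighbour gene, so its level depends on how shared reads were divided. Ctss, the protease cathepsin S that trims antigens for display, was at 660.3 and 390.3 TPM in HFD+Cana, against 555 and 373 TPM in HFD. Cd68, a lysosomal membrane glycoprotein used to stain macrophages, was at 374 and 203 TPM in HFD+Cana, against 367 and 234 TPM in HFD. In Cd68 the higher mice of the groups were nearly level, and the log2 fold change was -0.09 (standard error 0.37). Laptm5 and Mpeg1 encode a lysosomal membrane protein and the pore-forming perforin-2. Laptm5 was at 228 and 139 TPM in HFD+Cana, against 217 and 165 TPM in HFD, and Mpeg1 at 156 and 87.0 TPM in HFD+Cana, against 156 and 107 TPM in HFD. Their HFD+Cana mice of replicate 2 were again the lowest of the 4.

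Of the remaining myeloid genes, Aif1 and Ms4a7 had the widest ratios between the HFD+Cana mice after Cx3cr1. Aif1, the actin-binding protein IBA1, was at 17.7 and 5.68 TPM in HFD+Cana, against 14.1 and 9.27 TPM in HFD. Ms4a7, a membrane protein of macrophages with 4 spans, was at 41.1 and 15.5 TPM in HFD+Cana, against 42.3 and 26.2 TPM in HFD. The log2 fold change of Ms4a7 was -0.38 (standard error 0.50, 95% interval -1.71 to 0.94), the second largest below 0. Cd84, a receptor of the SLAM family, was at 72.3 and 39.0 TPM in HFD+Cana, against 57.3 and 43.6 TPM in HFD.

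In the genes of leukocytes in general, replicate 1 again stood above replicate 2 in both groups. Lcp1, which encodes the actin-bundling L-plastin, was at 115 and 63.2 TPM in HFD+Cana, against 121 and 88.5 TPM in HFD (log2 fold change -0.28, standard error 0.33). Coro1a, a regulator of actin, was at 74.8 and 46.6 TPM in HFD+Cana, against 74.2 and 64.4 TPM in HFD. Cd53, a tetraspanin, was at 84.6 and 46.5 TPM in HFD+Cana, against 73.3 and 50 TPM in HFD. In each of the 3 the HFD+Cana mouse of replicate 2 was lowest. Spi1 (chromosome 2, 91082390 to 91115756) itself was at 78.3 and 45.6 TPM in HFD+Cana, against 73.7 and 49.0 TPM in HFD. Its group means were 62.0 ± 23 TPM in HFD+Cana and 61.3 ± 17.4 TPM in HFD (SD, n = 2 each), and its log2 fold change was -0.01 (standard error 0.32).

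The ranks were alike over the whole set. The HFD+Cana mouse of replicate 1 was the highest of the 4 in 27 genes (31.4% of all genes tested), and the HFD mouse of replicate 1 in the other 6 (27.2%), Mertk, Fcgr1, Cyba, Mpeg1, Ms4a7 and Lcp1. No member had its highest level in HFD+Cana replicate 2 (23.8% of all genes) or in HFD replicate 2 (17.5%). The HFD+Cana mouse of replicate 2 was the lowest in 25 genes (28.5%) and the HFD mouse of replicate 2 in 8 (24.3%). No member had its lowest level in HFD+Cana replicate 1 (20.0% of all genes) or in HFD replicate 1 (26.8%). Of all the orders that 4 mice can take, a single one, HFD+Cana replicate 1, HFD replicate 1, HFD replicate 2, HFD+Cana replicate 2, held 19 of the 33 genes, where 7.17% of all genes had it. The order HFD+Cana replicate 1, HFD replicate 1, HFD+Cana replicate 2, HFD replicate 2 held 5 genes (6.04%), Itgam, Fcgr3, Ncf1, Lyz2 and Ctss. The order HFD replicate 1, HFD+Cana replicate 1, HFD replicate 2, HFD+Cana replicate 2 also held 5 genes (6.65%), which are those of the 6 named above other than Mertk. The members were measured in the same 4 samples and share their cells, so their ranks are not independent of each other.

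**Figure D2:**
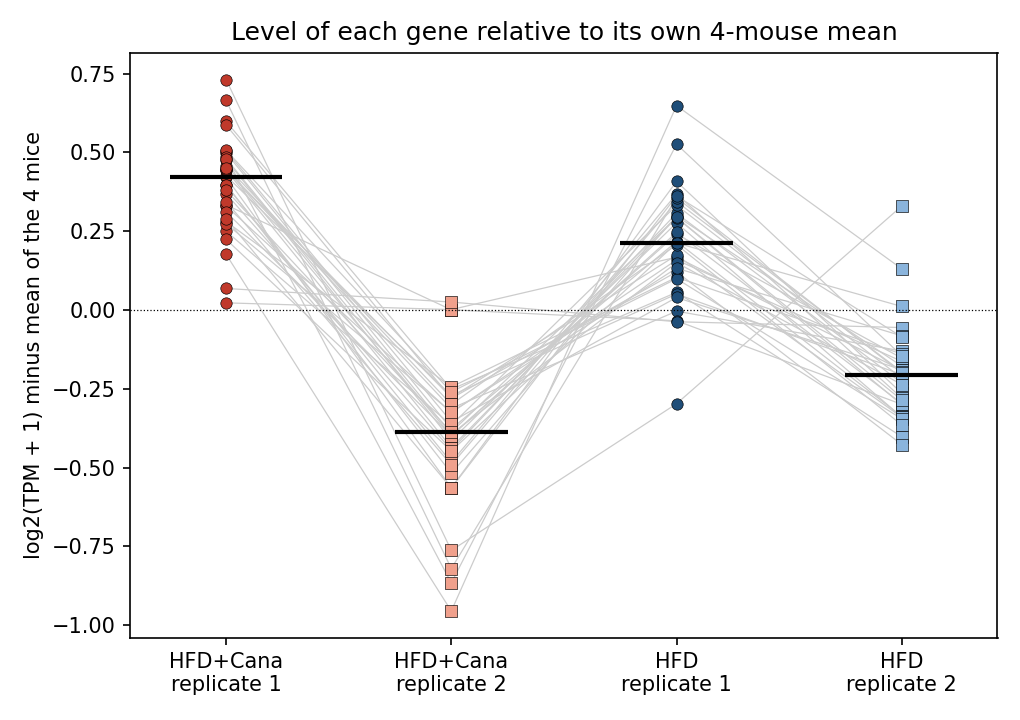
log2(TPM + 1) of each of the 33 genes in each mouse minus the mean of that gene over the 4 mice, with a grey line joining the points of a gene and a black bar at the median of the 33 genes. The medians are 0.42 and -0.39 in HFD+Cana replicates 1 and 2 and 0.21 and -0.21 in HFD replicates 1 and 2, so the spread within each group exceeds the distance between the groups.

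The gap between mice of a group was also wide in size. Taken without its sign, the difference of log2(TPM + 1) between the HFD+Cana mice had a median of 0.83 over the 33 genes (lowest 0.0208 in Mertk, highest 1.49) and of 0.15 over all genes tested. Between the HFD mice the median was 0.52 over the 33 genes and 0.14 over all genes. As a ratio of TPM, replicate 1 of HFD+Cana exceeded replicate 2 by a median of 1.79 times, with 6.75 times in Cx3cr1, 3.1 times in Aif1 and 2.66 times in Ms4a7 at the top. The standard error of the log2 fold change had a median of 0.32 over the members and of 0.13 over all genes tested. The half-width of the 95% interval had a median of 0.85, and the interval lay between -1 and 1 in 18 of 33 genes. That half-width was about as large as the median gap between the HFD+Cana mice, and the lack of a call does not show that a gene stayed level.

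**Figure D3:**
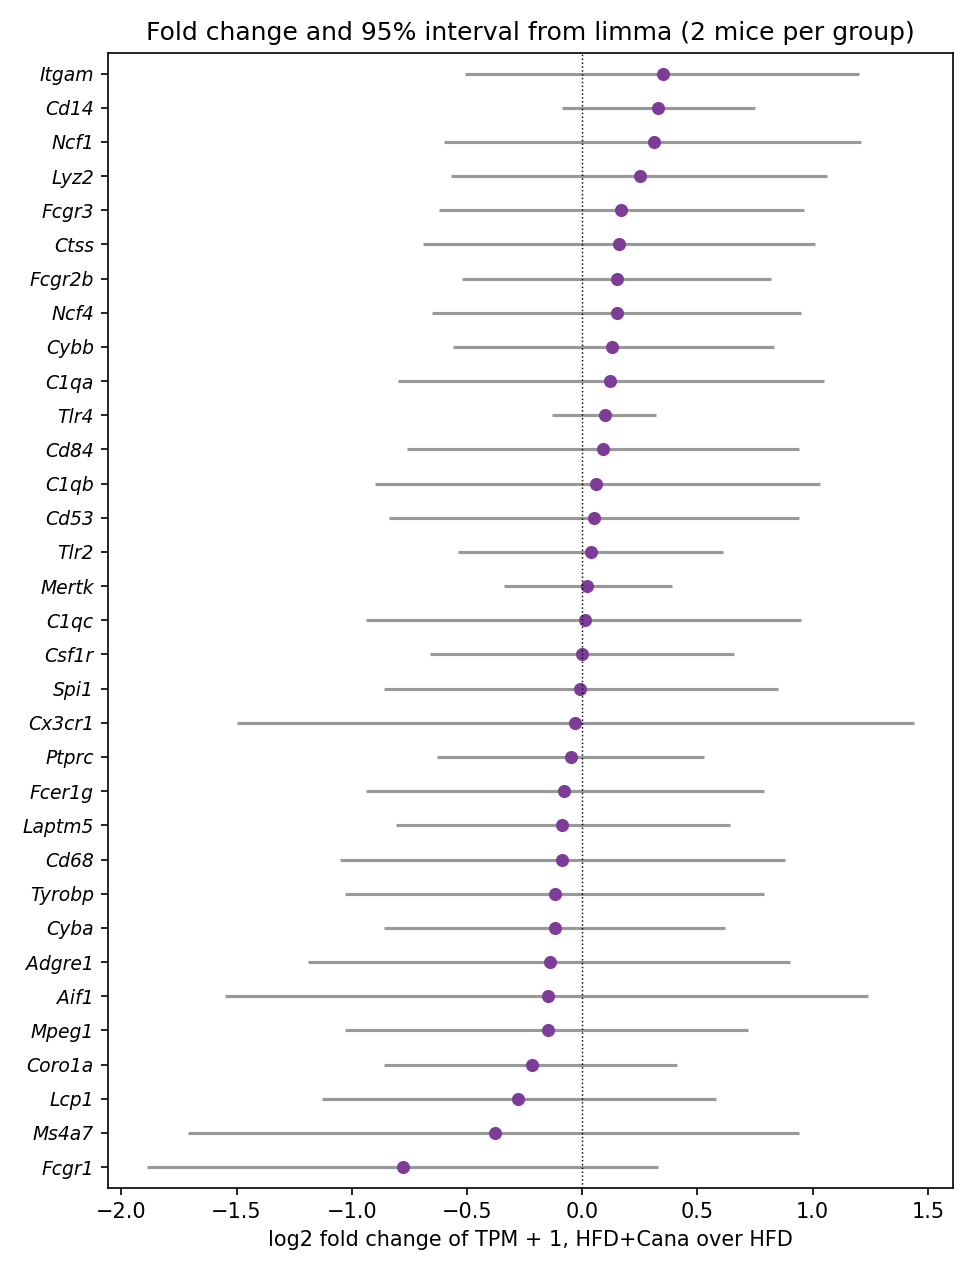
log2 fold change of TPM + 1, HFD+Cana over HFD, of each of the 33 genes with its 95% interval from limma, ordered by size (2 mice per group). Every interval crosses 0, and the values run between 0.35 for Itgam and -0.78 for Fcgr1.

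Because of this order, the direction of the set depended on which mice were compared. Without HFD+Cana replicate 2, 32 members had a log2 fold change above 0 and 1 below, with a median of 0.376, and 27 stood above both HFD mice. Without HFD+Cana replicate 1, 3 were above 0 and 30 below, with a median of -0.373, and 25 stood below both HFD mice. Without HFD replicate 1 the median was 0.197, with 8 members higher in both HFD+Cana mice, and without HFD replicate 2 it was -0.159, with 6 members lower in both. Shares over all genes were not taken for these fits, so the counts describe the members only. No member passed in any of these fits. Cd14, Tlr4 and Fcgr1 kept 1 sign in all 4 of them, with log2 fold changes of 0.17 to 0.50 for Cd14, 0.07 to 0.12 for Tlr4 and -1.34 to -0.21 for Fcgr1.

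Since the members moved together by mouse, each was also set against the median of the 33 genes in the same mouse, a description chosen after the values were seen and given without a test. On this log2 scale 12 genes stood higher in both HFD+Cana mice than in both HFD mice and 2 stood lower. Among the 13707 tested genes above 0 in every sample, set against the same median, the shares were 6.56% and 2.93%, but those genes do not share the members' differences between mice. The 12 genes were Itgam, Fcgr2b, Fcgr3, C1qa, Cybb, Ncf1, Ncf4, Cd14, Lyz2, Ctss, Cd84 and Cd53, and the 2 were Fcgr1 and Lcp1. Itgam lay at -0.66 and -0.67 in HFD+Cana, against -1.03 and -1.18 in HFD, a difference of 0.44. Fcgr1 lay at -3.37 and -3.88 in HFD+Cana, against -2.67 and -2.92 in HFD, a difference of -0.83.

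Ratios of single pairs differed in how widely they separated the groups. The ratio of Itgam to Adgre1 was 0.555 and 0.607 in HFD+Cana, against 0.381 and 0.441 in HFD, and that of Itgam to Csf1r was 0.355 and 0.307 in HFD+Cana, against 0.272 and 0.245 in HFD. Against each of the 32 other members, Itgam was proportionally higher in both HFD+Cana mice in 27 cases. The ratio of Fcgr1 to Fcgr3 was 0.0424 and 0.0273 in HFD+Cana, against 0.0733 and 0.0710 in HFD. Fcgr1 was proportionally lower in both HFD+Cana mice against 31 of the 32 others. Ncf1 was proportionally higher against 22 of 32, Lyz2 against 22 and Cd14 against 14, and Lcp1 was proportionally lower against 22. The other 8 of the 12 genes were proportionally higher against 7 (Cybb) to 16 (Fcgr3) of 32, while Mpeg1, Ms4a7 and Coro1a, which are not among the 2 lower genes, were proportionally lower against 16 each. These counts are to be read against the whole set, in which 242 of the 528 pairs of members (45.8%) had a ratio that separated the groups in either direction.

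**Figure D4:**
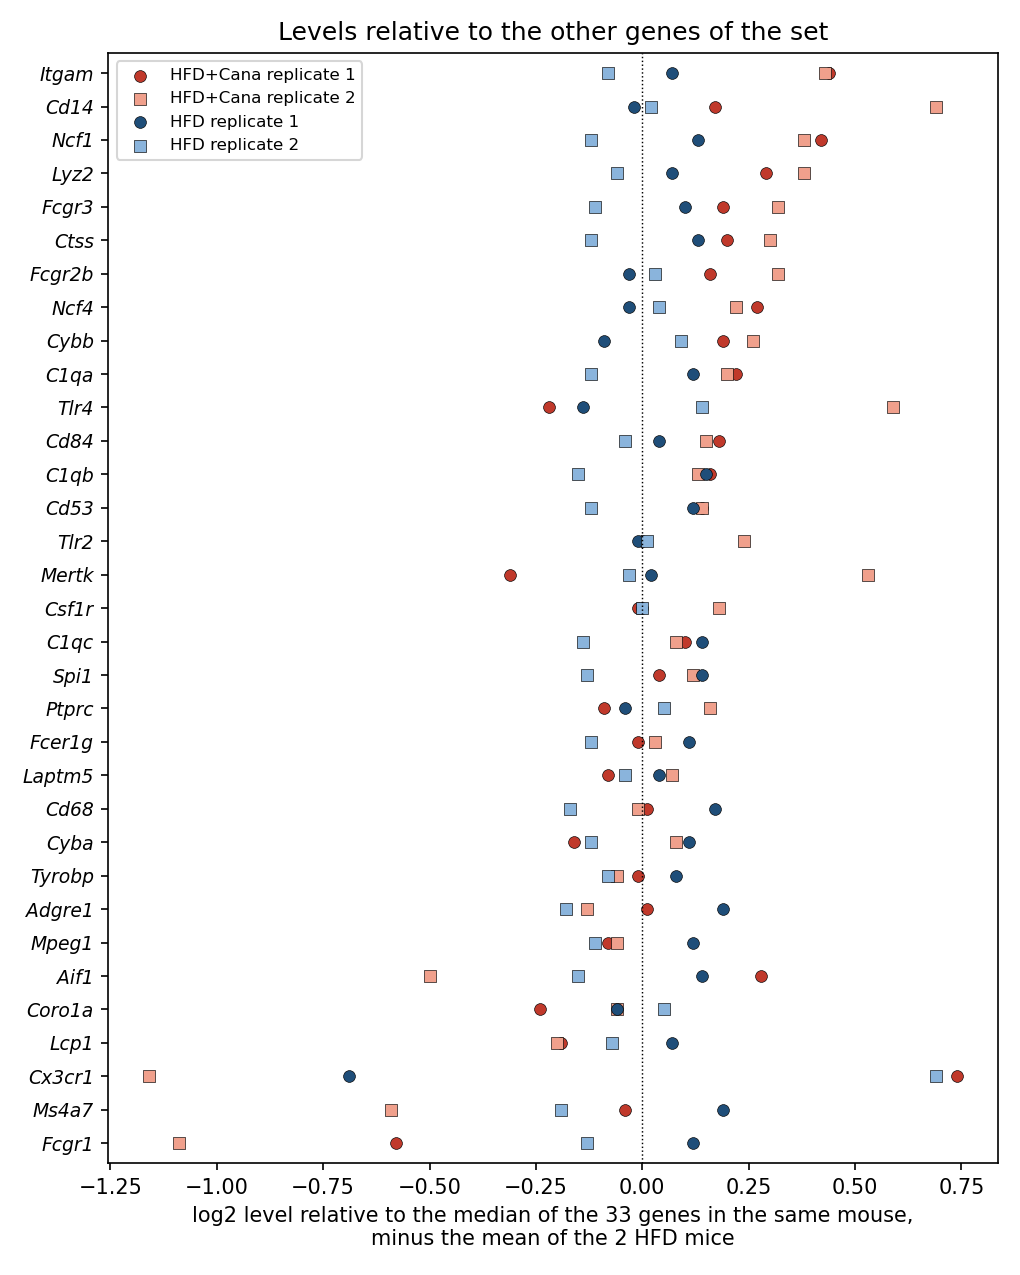
log2 level of each of the 33 genes relative to the median of the 33 in the same mouse, shifted so that the mean of the 2 HFD mice is 0, with 1 point per mouse. Genes are ordered by the mean of the HFD+Cana mice minus that of the HFD mice on this relative scale. In Itgam, Ncf1 and Lyz2 both HFD+Cana points lie to the right of both HFD points, in Fcgr1 and Lcp1 both lie to the left, and in Cx3cr1, Mertk and Tlr4 the HFD+Cana points lie far apart on either side.

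Other genes of the same pathways were read from lists that, like the members, were drawn up with results of these data known. Of 14 other genes of Fc receptor and ITAM signalling, which include receptors as well as kinases and phosphatases, 0 passed in either direction, the median log2 fold change was -0.03, and 14 stood higher in HFD+Cana replicate 1 than in replicate 2. Among them the kinase gene Lyn was at 39.8 and 29.3 TPM in HFD+Cana, against 42.4 and 35.1 TPM in HFD. Of 5 partners of the oxidase, 0 passed, with a median of 0.01, and Rac2, the small GTPase of the assembled enzyme, was at 20.9 and 13.8 TPM in HFD+Cana, against 17.0 and 14.5 TPM in HFD. Of 11 leukocyte integrin and cytoskeleton genes 0 passed, with a median of -0.04, and all 11 had the same order of the HFD+Cana mice. In the oxidase list HFD+Cana replicate 1 stood above replicate 2 in 4 of 5 genes.

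Of 17 genes of the Toll-like receptor pathway 0 passed, and the median log2 fold change was 0.01. At an unadjusted p under 0.05 in limma, 1 was lower (5.45% of all genes). That gene was Lbp, whose product binds endotoxin and brings it to CD14, at 359 and 371 TPM in HFD+Cana, against 697 and 601 TPM in HFD. Both HFD+Cana mice were well below both HFD mice, with a log2 fold change of -0.82 (standard error 0.11), and the gene did not pass (adjusted p = 0.193 in limma). Lbp is a secreted protein made in liver and fat and not a macrophage gene, and its 2 mice per group did not share the gap seen in the members.

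In the lists of ligands and kin of the receptors and of complement partners of C1q, the order of the HFD+Cana mice was mixed. Replicate 1 stood above replicate 2 in 5 of 7 and in 2 of 6 genes (55.9% of all genes tested). The kin in the first list are receptors, not ligands. Of the 7 ligands and kin of the receptors, 5 stood higher in both HFD+Cana mice (24.3% of all genes) and 1 lower in both (19.8%). At an unadjusted p under 0.05 in limma, 1 was higher (5.32%), and 0 passed. Csf1, the growth factor of macrophages, was at 37.7 and 31.2 TPM in HFD+Cana, against 26.5 and 24.4 TPM in HFD (log2 fold change 0.42, standard error 0.12, adjusted p = 0.374 in limma), and Gas6, a ligand of MERTK, at 174 and 207 TPM in HFD+Cana, against 137 and 167 TPM in HFD. Of the 6 complement genes that act with C1q, 2 were higher at an unadjusted p under 0.05 (5.32% of all genes) and 0 passed. These were C1s1 and C1ra, the proteases that C1q activates. C1s1 was at 303 and 336 TPM in HFD+Cana, against 215 and 225 TPM in HFD (log2 fold change 0.53, standard error 0.09, adjusted p = 0.238 in limma). C1ra was at 109 and 109 TPM in HFD+Cana, against 81.9 and 82.1 TPM in HFD (log2 fold change 0.41, standard error 0.07, adjusted p = 0.242 in limma). The mice of a group were close to level in both protease genes, while those of C1q itself were far apart.

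Of 9 other transcription factor genes of myeloid cells 0 passed, with a median of -0.08. Klf4 was at 58.2 and 62.6 TPM in HFD+Cana, against 45.0 and 45.0 TPM in HFD, and Nr1h3, which encodes the oxysterol receptor LXR alpha, at 85.6 and 91.6 TPM in HFD+Cana, against 109 and 106 TPM in HFD. Their groups were separated in opposite directions, with adjusted p of 0.264 and 0.375 in limma, and both genes are also read in cells other than macrophages.

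Lists that divide macrophages into kinds gave no gene that passed. Of 8 genes of resident macrophages, 3 stood higher in both HFD+Cana mice, where 24.3% of all genes did. At an unadjusted p under 0.05 in limma, 1 was higher (5.32% of all genes), and the median log2 fold change was 0.23. Cd163, the hemoglobin scavenger receptor, was at 68.8 and 58.1 TPM in HFD+Cana, against 50 and 42.8 TPM in HFD (log2 fold change 0.44, standard error 0.13, adjusted p = 0.376 in limma). Lyve1 was at 66.6 and 40.9 TPM in HFD+Cana, against 35.7 and 30.7 TPM in HFD. Cbr2 and Cd209f of the same list had log2 fold changes below 0, -0.10 and -0.20, and their groups overlapped. The median of 10 genes of lipid-associated macrophages was -0.05. Of these 10, 1 was higher and 1 lower at an unadjusted p under 0.05 in limma (5.32% and 5.45% of all genes). These were Cd9, at 129 and 111 TPM in HFD+Cana, against 90.5 and 90.2 TPM in HFD, and Fabp5, at 566 and 468 TPM in HFD+Cana, against 683 and 639 TPM in HFD. All 8 resident genes and 9 of the 10 lipid-associated genes stood higher in HFD+Cana replicate 1 than in replicate 2, like the members.

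The summed markers of other blood cells had other orders of the mice than the most common order of the members. The 10 T and NK cell genes summed to 26.2 and 24.9 TPM in HFD+Cana, against 21.0 and 23.3 TPM in HFD. The largest part of that sum was Cd2, at 10.5 and 10.1 TPM in HFD+Cana, against 6.48 and 6.36 TPM in HFD. Cd2 is named here after its values were seen. Of the 8 tested T and NK genes, 2 had both HFD+Cana mice above both HFD mice (24.3% of all genes). Another 1 had both below (19.8%), and the median log2 fold change was -0.02. The 5 dendritic cell genes summed to 19.2 and 18.7 TPM in HFD+Cana, against 18.4 and 20.5 TPM in HFD. The dendritic cell sum was mostly Zbtb46, at 12.6 and 13.9 TPM in HFD+Cana, against 10.4 and 14.8 TPM in HFD, while Flt3, at 3.16 and 1.42 TPM in HFD+Cana, against 3.03 and 2.21 TPM in HFD, and Xcr1 had the most common order of the members. The 5 neutrophil genes summed to 28.6 and 28.2 TPM in HFD+Cana, against 131 and 58.9 TPM in HFD. That sum was carried by S100a8, at 13.7 and 22.5 TPM in HFD+Cana, against 117 and 53.7 TPM in HFD, while the defining marker Ly6g was listed at 0 in all 4 mice. S100a9 was at 2.58 and 2.43 TPM in HFD+Cana, against 6.94 and 1.14 TPM in HFD, so its groups overlapped. S100a8 was the only 1 of the 4 tested neutrophil genes with both HFD+Cana mice below both HFD mice (19.8% of all genes). The 5 B cell genes summed to 474 and 358 TPM in HFD+Cana, against 716 and 653 TPM in HFD, nearly all of it from the immunoglobulin gene Ighm, named here after its values were seen, while Cd79a, a chain of the B cell receptor complex, was at 4.06 and 1.37 TPM in HFD+Cana, against 0.697 and 1.29 TPM in HFD. The 5 mast cell genes summed to 71.7 and 60.0 TPM in HFD+Cana, against 47.4 and 41.2 TPM in HFD.

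Markers of the fat pad's other cells had further orders of the mice. The 8 adipocyte genes summed to 40471 and 48152 TPM in HFD+Cana, against 43859 and 46204 TPM in HFD, which is the most common order of the members turned round. That order was set by Fabp4, named here after its values were seen, at 27143 and 32473 TPM in HFD+Cana, against 27660.5 and 28927 TPM in HFD. None of the other 7 genes had that full order. Within the groups, HFD+Cana replicate 1 stood above replicate 2 in 0 of the 8 genes, and HFD replicate 1 above replicate 2 in 1. In the members these counts were 33 and 32 of 33. The 5 endothelial genes summed to 631 and 751 TPM in HFD+Cana, against 838 and 778 TPM in HFD. The 5 fibroblast and progenitor genes summed to 1639 and 1592 TPM in HFD+Cana, against 1141 and 1257 TPM in HFD. Most of this sum was Dcn, at 1152 and 1374 TPM in HFD+Cana, against 871 and 993 TPM in HFD. Col1a1 had the most common order of the members, at 395 and 119 TPM in HFD+Cana, against 216 and 162 TPM in HFD. Both genes are named here after their values were seen. HFD+Cana replicate 1 stood above replicate 2 in 2 of the 5 genes. The red cell and liver sums given above did not have the order of the members. The 5 epididymis genes summed to 4.0 and 0.523 TPM in HFD+Cana and 0 and 0.0225 TPM in HFD, with 4 of the 5 at 0 in every mouse. The part of adipocyte RNA, or of any other tissue in the sample, in the mouse order of the 33 genes was not tested.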

How the data were processed

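RNA of gWAT from 2 HFD+Cana and 2 HFD mice was assigned to groups by the sample labels. The authors processed reads with nf-core/rnaseq 3.12.0 (default setting, nextflow 23.10.0) and deposited gene TPM estimated by Salmon. The submitters' processing notes also name GRCm38 (mm10) and R 4.3.2. No source used here names the annotation release. Each deposited TPM column sums to 1000000, and depth is unknown.

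Gene IDs were matched to GENCODE M21 for positions (45143 of 45706), and 27 names that had turned into dates were restored by ID. For the 13788 genes averaging 1 TPM or more, log2(TPM + 1) was fitted on group alone in limma 3.58.1 (R 4.3.3; lmFit, then eBayes with a trend). Benjamini-Hochberg adjustment covered all of these genes, with a threshold of 0.05. Fold changes on this scale understate those of low genes. The code was tested on simulated data. No count test was run, since TPM are not counts. The members and the other gene lists were chosen with earlier results of these data known. All 33 members are named, with up to 3 genes of smallest p of each pathway or macrophage list and up to 3 genes in list order of each cell type list. Some genes under this rule are not reported here by name, and list counts and sums include them. Alternatives were pseudocounts of 0.1 and 5, no filter, a mean of at least 5 TPM, median-of-ratios scaling, TPM without mitochondrial genes, eBayes without trend, the replicate number as a block, and leaving out each mouse. Promoters came from RefSeq (GRCm38.p6). Python 3.11.15, pandas 2.3.3 and matplotlib 3.10.9 were used.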

Additional observations from a re-analysis of the deposited data

How the results depend on the processing

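No member passed under any alternative, and 6 genes of all 13788 passed in the reported fit. That number was 0 with a pseudocount of 0.1, with no filter on low values, with a mean of at least 5 TPM and without any single mouse (0 to 0), 2 with a pseudocount of 5 and with the replicate block, and 13 with eBayes without trend. The sign of a member changed in 3 cases when no mouse was left out, Cx3cr1 (0.02 with a pseudocount of 5) and, with median-of-ratios scaling, Csf1r (-0.02) and C1qc (-0.02). With that scaling 1 member, Fcgr1, had both HFD+Cana mice below both HFD mice. The mean of at least 5 TPM left out Cx3cr1. Leaving out single mice put 0 to 25 members below and 2 to 27 above all remaining mice of the other group. It changed the sign of 30 of 33 members. Shares over all genes were not taken for these fits. Adgre1 -0.63 to 0.35, Aif1 -0.90 to 0.59, C1qa -0.32 to 0.56, C1qb -0.38 to 0.51, C1qc -0.43 to 0.45, Cd53 -0.37 to 0.47, Cd68 -0.52 to 0.35, Cd84 -0.35 to 0.52, Coro1a -0.56 to 0.11 and Csf1r -0.33 to 0.33 were the lowest and highest log2 fold changes of the first genes by name. Ctss -0.22 to 0.54, Cx3cr1 -0.78 to 0.72, Cyba -0.43 to 0.19, Cybb -0.25 to 0.51, Fcer1g -0.48 to 0.33, Fcgr2b -0.20 to 0.50, Fcgr3 -0.19 to 0.53, Itgam -0.08 to 0.77, Laptm5 -0.44 to 0.27 and Lcp1 -0.70 to 0.15 follow. Lyz2 -0.14 to 0.63, Mertk -0.15 to 0.20, Mpeg1 -0.57 to 0.26, Ms4a7 -1.06 to 0.29, Ncf1 -0.13 to 0.74, Ncf4 -0.28 to 0.58, Ptprc -0.35 to 0.25, Spi1 -0.39 to 0.38, Tlr2 -0.23 to 0.30 and Tyrobp -0.57 to 0.34 complete the 30. The 4 fits leave 1 mouse in a group, which is assumed to vary like the others. The cause of these shifts was not tested beyond the order of the mice.

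The labels give both groups replicate numbers 1 and 2, which pair nothing that the labels name. Deviations of same-numbered mice from their group means had a correlation of 0.178 over 13788 genes. With the replicate number as a block 0 members passed, and the smallest adjusted p was 0.224 in limma. In that fit 2 members had an unadjusted p under 0.05, Cd14 (0.0113) and Fcgr1 (0.0166 in limma). The share of all genes at that threshold was not taken for the block.

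With 2 mice per group and no known depth, precision rests on the spread between mice alone. Summed liver, mesothelial and red cell markers stood higher in both HFD+Cana mice, and their share in the sample and the treatment cannot be told apart.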
